A study of Mus musculus with 12 samples.

Results

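A set of 7 genes was followed through mouse scar tissue: the 4 group XIV C-type lectins, Cd248 (which encodes TEM1, also called endosialin), Thbd, Cd93 and Clec14a, and 3 genes of matrix or secreted proteins reported to bind them, Fn1, Mmrn2 and Lgals3bp. They were chosen by symbol, and all 7 of the 35976 genes listed in the count files were found and passed the filter on low counts, among 18853 genes that could be tested. The question was whether the genes of this lectin family and of its ligands differ with mechanical traction of a scar, and whether they differ when Tem1 itself is missing.

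Group XIV lectins are membrane proteins with a C-type lectin-like domain at the outer end, followed by EGF-like repeats, a mucin-like stalk, a single membrane span and a short cytoplasmic tail. TEM1 is carried by fibroblasts, pericytes and other mesenchymal cells, while thrombomodulin (Thbd), CD93 and CLEC14A are known mainly from endothelial cells, and thrombomodulin also from keratinocytes. Fibronectin and multimerin-2 are laid down in the matrix, multimerin-2 along blood vessels, and the galectin-3 binding protein is secreted by many cells. TEM1 has been reported to bind all 3, and CD93 and CLEC14A to bind multimerin-2.

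The scars came from male mice aged 8 to 12 weeks, with 3 mice in each of 4 groups. A wound of 1.5 cm was made in the back skin and a plastic device was fixed to it on day 6. Traction was given by elongating the device by 1 mm a day until it had grown by 8 mm, and mice of the sham groups wore the same device without elongation. The genotype was Tem1WT/WT or Tem1lacZ/lacZ. In the latter, a germline allele in which lacZ stands in place of the single Tem1 exon removes the gene from all cells from conception on, so an effect in the scar cannot be assigned to 1 cell type. The groups are named WTSH and WTTR for sham and traction in Tem1WT/WT mice, and lacZSH and lacZTR for sham and traction in Tem1lacZ/lacZ mice. Each library is 1 mouse and held RNA from a part of the whole scar.

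Each library held 41536788 to 64644293 counts (median 48173798). The variation between mice of the same group was 34.2% as a biological coefficient of variation. All 20 endothelial and all 16 fibroblast marker genes had counts in each of the 12 libraries. WTTR replicate 1 stood apart from the other libraries. Its mean log2 CPM over the 11 tested neutrophil markers was 7.66. This mean was 4.41 and 3.52 in WTTR replicates 2 and 3 and 1.57 to 3.64 in the other groups. Its mean over 12 keratinocyte markers, 8.29, was the lowest of all libraries. The summed level of these 12, 19326 CPM, lay within the 12880 to 46148 CPM of the other libraries. The highest sum was that of lacZTR replicate 1. That library also had the lowest mean log2 CPM of endothelial markers in its group, 4.63 against 5.30 and 5.32. Levels are given as CPM, counts divided by the TMM-normalized library size and brought to a common scale, and "called" means that the p of edgeR's quasi-likelihood test, after Benjamini-Hochberg adjustment across the 18853 genes, was under 0.05. In bulk tissue, fewer cells of a type and less RNA per cell cannot be told apart.

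The 4 lectin genes are shown first by the start of their coding sequences, since their reads could be shared only if the sequences were alike. In GRCm38 coordinates with the GENCODE vM21 annotation, Cd248 is a single exon on the plus strand (chr19:5068078-5070682), with its coding part at chr19:5068126-5070420. Thbd (chr2:148404466-148408188) is also a single exon, on the minus strand, with its coding part at chr2:148406216-148407946. Cd93 has 2 exons on the same strand (chr2:148436640-148443563) and its coding span is chr2:148441246-148443424. Clec14a has 1 exon on the minus strand (chr12:58264720-58269290), with its coding part at chr12:58267458-58268834. The first 120 coding bases of each, 5′ to 3′ on the coding strand, are printed below with the start codon in capitals.
Cd248: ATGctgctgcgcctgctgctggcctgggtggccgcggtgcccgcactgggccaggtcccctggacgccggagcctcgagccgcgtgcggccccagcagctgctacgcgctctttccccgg
Thbd: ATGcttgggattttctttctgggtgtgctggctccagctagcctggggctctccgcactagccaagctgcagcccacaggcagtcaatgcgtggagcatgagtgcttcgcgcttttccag
Cd93: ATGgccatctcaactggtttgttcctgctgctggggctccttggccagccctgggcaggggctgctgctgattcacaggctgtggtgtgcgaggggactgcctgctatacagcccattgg
Clec14a: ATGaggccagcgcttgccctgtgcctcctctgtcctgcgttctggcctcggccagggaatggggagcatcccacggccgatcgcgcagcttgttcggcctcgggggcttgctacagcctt

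The coding sequences were 2298 bases for Cd248, 1734 for Thbd, 1935 for Cd93 and 1380 for Clec14a. The longest run of bases that any pair of these transcripts shared was 16, found for Cd248 with Thbd and for Thbd with Cd93, and 12 to 14 for the other pairs. Thbd and Cd93 lie next to each other, 28.46 kb apart with 0 annotated genes between them. Fn1 (chr1:71585520-71653200, minus strand) has 17 annotated transcripts over 45 exon blocks, which the counts do not separate, so its splice forms were not compared. It overlaps the antisense gene Apol7d, which had 0 to 10 counts in the libraries. Mmrn2 (chr14:34375465-34404287, plus strand) and Lgals3bp (chr11:118392751-118402092, minus strand) overlap no other annotated gene.

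Per kb of exon, the 7 genes fell into a high and a low set in sham scars of Tem1WT/WT mice. Fn1 was highest at 129 ± 25.4 CPM per kb (SD, n = 3), followed by Lgals3bp at 67.3 ± 8.61 and Cd248 at 57.5 ± 14.7. The ranges of Lgals3bp and Cd248 overlapped, so their order does not stand beyond the spread between mice. Cd93 at 10.1 ± 4.21, Thbd at 9.91 ± 1.75 and Mmrn2 at 9.27 ± 1.47 CPM per kb lay together with overlapping ranges, and Clec14a was lowest at 3.78 ± 1.51. Fn1 was the highest and Lgals3bp the next highest in all 4 groups by the mean. With traction in the same genotype, Cd93 stood at 29.7 ± 9.24 CPM per kb, while Thbd stood at 15.9 ± 2.81 and Mmrn2 at 18.8 (range 16.9 to 21.0).

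**Figure D1:**
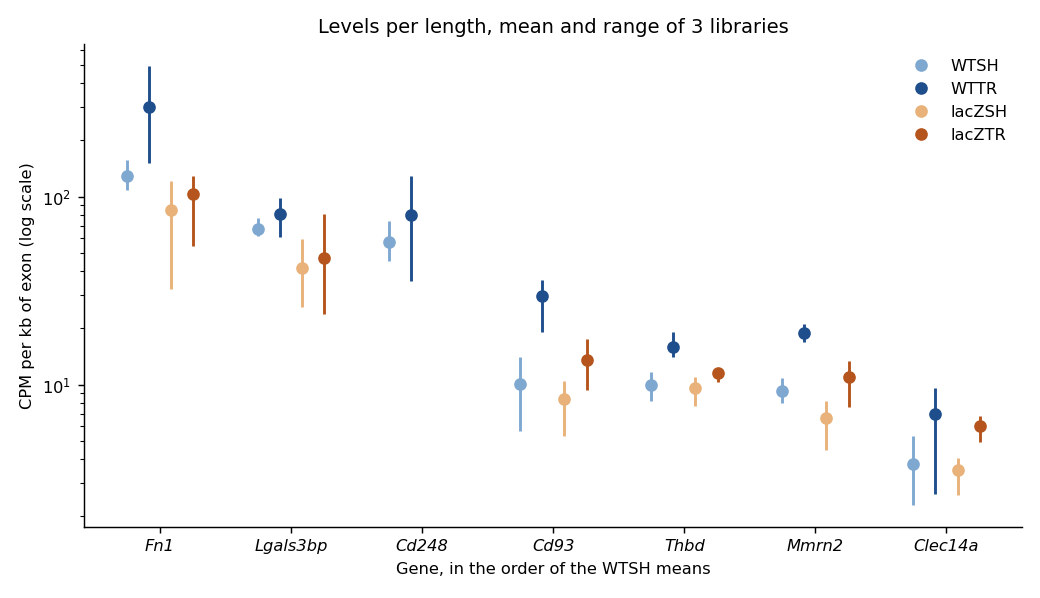
Levels per kb of exon (CPM per kb, log scale) of the 7 genes in the 4 groups, as the mean (point) and range (line) of 3 libraries; Cd248 is not drawn for the Tem1lacZ/lacZ groups, where it was under 0.1 CPM per kb. Fn1, Lgals3bp and Cd248 lie above the 3 endothelial lectins and Mmrn2 in the sham scars of Tem1WT/WT mice.

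Cd248 followed the genotype in every library. Sham scars of Tem1WT/WT mice held 119, 138 and 193 CPM, and traction scars of the same genotype held 92.4, 197 and 337 CPM, from 3883 to 16413 counts. The Tem1lacZ/lacZ libraries held 4, 8 and 4 counts with sham and 0, 13 and 6 with traction, 35 counts in all. The library with 0 counts allows a level of up to 0.0739 CPM, the level of 3 counts, which covers counting error only. The log2 difference between Tem1lacZ/lacZ and Tem1WT/WT mice was −10.25 (standard error 0.79, adjusted p = 0.00108) in sham scars and −10.65 (standard error 0.79, adjusted p = 0.000755) in traction scars. Genes called in these 2 comparisons made up 0.0106% and 0.106% of all genes tested, and in both Cd248 had the smallest p. Because the Tem1lacZ/lacZ libraries are near 0, the exact size depends on the prior count of the fit. No reads on lacZ itself were analysed here.

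In Tem1WT/WT mice, 1 of the 3 traction libraries lay below the sham range of Cd248 and 2 lay above it. The log2 fold change with traction was 0.48 (95% confidence interval −0.62 to 1.57, adjusted p = 0.542), and it was −0.05 without WTTR replicate 3 and 0.81 without WTTR replicate 1. Relative to the mean log2 CPM of the fibroblast markers of the same library, Cd248 was steady in sham scars, at −1.84 to −1.75. It lay between −2.69 and −1.73 in traction scars, with the lowest value in WTTR replicate 1. Over the 6 libraries of Tem1WT/WT mice, the genes most like Cd248 in log2 CPM by Pearson's r among 13645 genes were Dpysl3 (1.00), Fbln5, a matrix protein of elastic fibers, Osr1, a transcription factor of mesenchymal cells, Commd10 and Mab21l1 (0.991). These are descriptions over 6 libraries that also share depth and tissue composition.

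The genes around Cd248 were looked at for an effect of the replaced exon. Of 15 annotated genes within 100 kb of Cd248, 12 were in the count files and 10 could be tested, and 0 of these were called between genotypes with sham, with traction or averaged over both in edgeR. At an unadjusted p under 0.05 there were 3 of the 10 with sham, 1 with traction and 3 in the average, where 11.7%, 26.1% and 28.4% of all genes had such a p. Klc2, a kinesin light chain gene 37.11 kb away, had the smallest adjusted p, 0.0746 in the average over both treatments, with a log2 difference of −0.40. Tmem151a, the nearest tested gene at 8.69 kb, had the largest log2 difference of the 10 with sham, −1.36 (adjusted p = 0.409). With traction it was at −0.37, and its mean was below 1 CPM in each group.

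**Figure D2:**
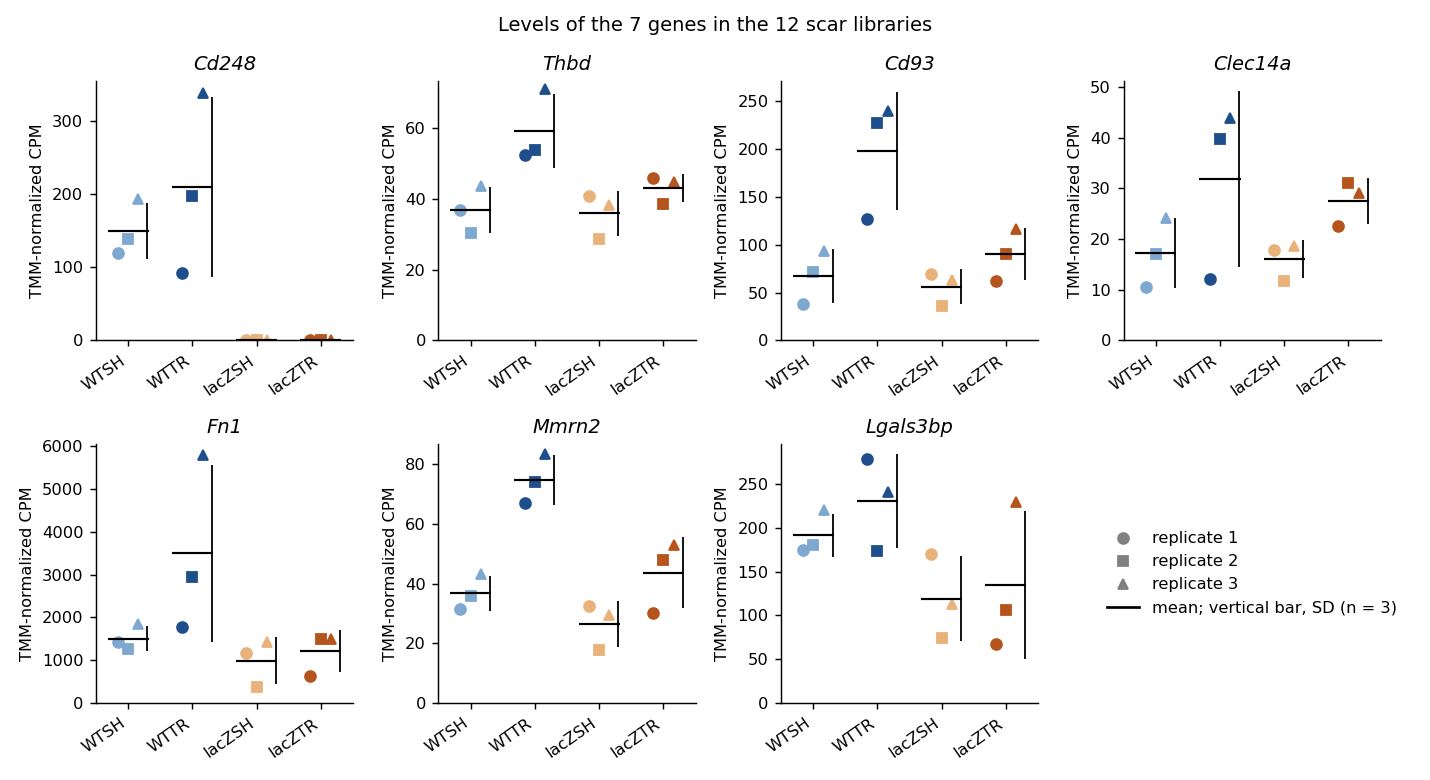
CPM of each of the 7 genes in all 12 libraries (symbols mark the replicate number), with the mean as a horizontal line and the SD as a vertical bar (n = 3). Thbd, Cd93 and Mmrn2 show no overlap between WTSH and WTTR, as do 35.7% of all genes. Cd248 is at the axis in all 6 Tem1lacZ/lacZ libraries.

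Among the 3 other lectins, Cd93 and Thbd rose with traction in Tem1WT/WT scars. With Mmrn2 they were the 3 of 7 genes called in this comparison, all higher, where 9.15% of all genes were called and 5.61% were called higher. Cd93, an endothelial receptor that takes part in vessel growth and in the assembly of fibronectin around vessels, held 37.6, 71.5 and 93.4 CPM in the sham scars and 127, 228 and 240 CPM in the traction scars. The groups did not overlap, which held for 35.7% of all genes, and WTTR replicate 1 was the lowest of the traction libraries. The log2 fold change was 1.55 (standard error 0.39, adjusted p = 0.0388), a 2.93-fold rise.

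Thbd encodes thrombomodulin, which binds thrombin and turns it toward the activation of protein C. It held 36.7, 30.5 and 43.5 CPM in sham scars and 52.4, 53.6 and 71.1 CPM in traction scars of Tem1WT/WT mice. Each traction library was above each sham library, and 35.7% of all genes likewise showed no overlap of these groups in either direction. The log2 fold change was 0.68 (standard error 0.19, adjusted p = 0.0479), close to the threshold.

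Clec14a, an endothelial lectin that binds multimerin-2 and is known from sprouting vessels, held 10.5, 17.1 and 24.3 CPM in sham scars and 12.04, 39.7 and 44.0 CPM in traction scars of Tem1WT/WT mice. WTTR replicate 1 fell within the sham range and the other two lay above it. The log2 fold change was 0.89 (95% confidence interval −0.07 to 1.84, adjusted p = 0.188), and without WTTR replicate 1 it was 1.26 with an adjusted p of 0.0552.

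Of the ligands, Mmrn2 had the smallest p of the 7 genes in this comparison. Its multimerin-2 is a protein of the EMILIN family, deposited around endothelial cells. It held 31.5, 35.8 and 43.1 CPM in sham scars and 67.0, 73.9 and 83.6 CPM in traction scars. These groups did not overlap, as was so for 35.7% of all genes. The log2 fold change was 1.02 (standard error 0.25, adjusted p = 0.0383), a 2.03-fold rise.

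Fn1 was the most abundant of the 7 genes. It held 1418, 1268 and 1841 CPM in sham scars and 1768, 2943 and 5791 CPM in traction scars of Tem1WT/WT mice. WTTR replicate 1 lay within the sham range and WTTR replicate 3 was far above the others. The log2 fold change of 1.21 (95% confidence interval 0.02 to 2.40, adjusted p = 0.153) was not called. Lgals3bp, a secreted glycoprotein that binds galectin-3, held 175, 180 and 220 CPM with sham and 278, 173 and 241 CPM with traction. The groups overlapped, and the log2 fold change was 0.27 (95% confidence interval −0.64 to 1.18, adjusted p = 0.694).

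The 3 calls were near the threshold. With only the 6 libraries of the groups compared none was called (adjusted p = 0.105 for Thbd, 0.0929 for Cd93 and 0.0747 for Mmrn2), as none of all genes was in edgeR (4876 had an unadjusted p under 0.05). Without WTSH replicate 1 or WTSH replicate 2 none of all genes was called either, with 4229 and 4847 at an unadjusted p under 0.05, and so none of the 7 genes or of the lists described further on. The 3 calls were also lost without lacZSH replicate 3, WTTR replicate 3 or lacZTR replicate 2. Without WTTR replicate 1, the log2 fold changes were 0.74 for Thbd, 1.77 for Cd93 and 1.08 for Mmrn2, with adjusted p-values of 0.0657, 0.0499 and 0.0619.

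In Tem1lacZ/lacZ scars traction gave no called gene, 0% of all genes tested, in edgeR. Of all genes, 1530 (8.12%) had an unadjusted p under 0.05, and DESeq2's Wald test called 28 and limma-voom 377. Without lacZTR replicate 1, edgeR called 73 of all genes, 72 of them higher, and 3721 had an unadjusted p under 0.05. Of the 7 genes 1 had an unadjusted p under 0.05 with all libraries, Mmrn2. None of the 7 was called by any of these tests or in any fit that left out 1 library. Cd93 held 69.7, 35.7 and 62.9 CPM with sham and 62.4, 90.7 and 117 CPM with traction, with overlap, and a log2 fold change of 0.68 (95% confidence interval −0.16 to 1.52). Mmrn2 held 32.4, 17.8 and 29.4 CPM with sham and 30.2, 47.8 and 53.1 CPM with traction. Its lowest traction library, lacZTR replicate 1, lay within the sham range, and the log2 fold change was 0.72 (95% confidence interval 0.16 to 1.28, adjusted p = 0.598). This fold change was 0.53 to 0.97 when 1 library was left out. Over the 21 other fits, which include DESeq2 and limma-voom, the lowest adjusted p of Mmrn2 was 0.0508, close to the threshold.

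Clec14a was the 1 gene of the 7 whose groups did not overlap in Tem1lacZ/lacZ mice, which held for 12.9% of all genes. It held 17.8, 11.8 and 18.6 CPM with sham and 22.5, 31.0 and 29.1 CPM with traction, and the log2 fold change was 0.78 (95% confidence interval −0.18 to 1.74, adjusted p = 0.647). Thbd held 40.8, 28.7 and 38.2 CPM with sham and 45.9, 38.6 and 44.7 CPM with traction, with overlap, and a log2 fold change of 0.26 (95% confidence interval −0.15 to 0.67). Fn1 held 1175, 375 and 1416 CPM with sham and 638, 1501 and 1494 CPM with traction. Lgals3bp held 170, 73.7 and 114 CPM with sham and 67.5, 106 and 229 CPM with traction, so both overlapped, with log2 fold changes of 0.29 and 0.17.

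Averaged over both genotypes, traction again gave a call for Mmrn2, Cd93 and Thbd, where 9.73% of all genes were called. The log2 fold changes were 0.87 for Mmrn2 (standard error 0.18, adjusted p = 0.0255), 1.12 for Cd93 (standard error 0.27, adjusted p = 0.0355) and 0.47 for Thbd (standard error 0.13, adjusted p = 0.0483). Clec14a had a log2 fold change of 0.83 (adjusted p = 0.0983), and without WTTR replicate 1 it was 1.04 with an adjusted p of 0.0264. None of the 7 genes was called without WTSH replicate 1 or 2, lacZSH replicate 2 or 3, or lacZTR replicate 2 or 3. Fn1 and Lgals3bp, at 0.75 and 0.22, were not called. This average shares its libraries with the comparisons within each genotype.

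None of the 3 other lectins was higher in scars that lacked Tem1. In sham scars the log2 difference between Tem1lacZ/lacZ and Tem1WT/WT mice was −0.04 for Thbd (95% confidence interval −0.45 to 0.37), −0.27 for Cd93 (−1.11 to 0.57) and −0.11 for Clec14a (−1.06 to 0.84). Libraries of the 2 genotypes overlapped for each of them. The intervals are wide, so a like level in the 2 genotypes was not shown. The ligands were at −0.61 for Fn1, −0.47 for Mmrn2 and −0.69 for Lgals3bp. Of the 6 genes other than Cd248, 1 showed no overlap, Lgals3bp, which held 175, 180 and 220 CPM in WTSH and 170, 73.7 and 114 CPM in lacZSH, as did 26.8% of all genes. It was not called (adjusted p = 0.518).

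With traction, the 6 genes other than Cd248 were each lower in Tem1lacZ/lacZ than in Tem1WT/WT mice by the fitted value, and 0 of the 6 were called in edgeR. Of these, 4 had an unadjusted p under 0.05, as did 26.1% of all genes, and the same 4 showed no overlap between the groups, a pattern that 26.6% of all genes had. Cd93 was at 62.4 to 117 CPM in lacZTR against 127 to 240 CPM in WTTR, a log2 difference of −1.14 (95% confidence interval −1.99 to −0.29, adjusted p = 0.116). Fn1 was at 638 to 1501 CPM against 1768 to 5791 CPM, a log2 difference of −1.53 (−2.73 to −0.33, adjusted p = 0.126).

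Mmrn2 was at 30.2 to 53.1 CPM in lacZTR against 67.0 to 83.6 CPM in WTTR, a log2 difference of −0.77 (95% confidence interval −1.33 to −0.22, adjusted p = 0.111). Thbd was at 38.6 to 45.9 CPM against 52.4 to 71.1 CPM, a log2 difference of −0.46 (−0.87 to −0.04, adjusted p = 0.1597). Clec14a, at −0.21, and Lgals3bp, at −0.78, overlapped between the genotypes. DESeq2's Wald test called Cd93, Fn1 and Mmrn2 lower here (adjusted p = 0.0389, 0.0341 and 0.0441), as it did 2334 genes in all where edgeR called 20, and limma-voom called none of the 6.

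Averaged over both treatments, 0.053% of all genes were called between the genotypes, and of the 7 genes only Cd248 was. The log2 differences of the others were −0.25 for Thbd, −0.70 for Cd93, −0.16 for Clec14a, −1.07 for Fn1, −0.62 for Mmrn2 and −0.73 for Lgals3bp. Mmrn2 came nearest to the threshold, with an adjusted p of 0.0763.

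Whether traction acted differently in the 2 genotypes was tested by the interaction, which called 0% of all genes in edgeR, with 1680 (8.91%) at an unadjusted p under 0.05, 69 called by DESeq2 and 0 by limma-voom. None of the 7 genes was among the DESeq2 calls or had an unadjusted p under 0.05. The difference of the 2 log2 fold changes was −0.87 for Cd93 (95% confidence interval −2.06 to 0.31), −0.92 for Fn1 (−2.58 to 0.74) and −0.42 for Thbd (−0.997 to 0.17). It was −0.30 for Mmrn2, −0.11 for Clec14a and −0.10 for Lgals3bp. A rise called in Tem1WT/WT mice and not in Tem1lacZ/lacZ mice was therefore not shown to differ between them for any of the genes.

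**Figure D3:**
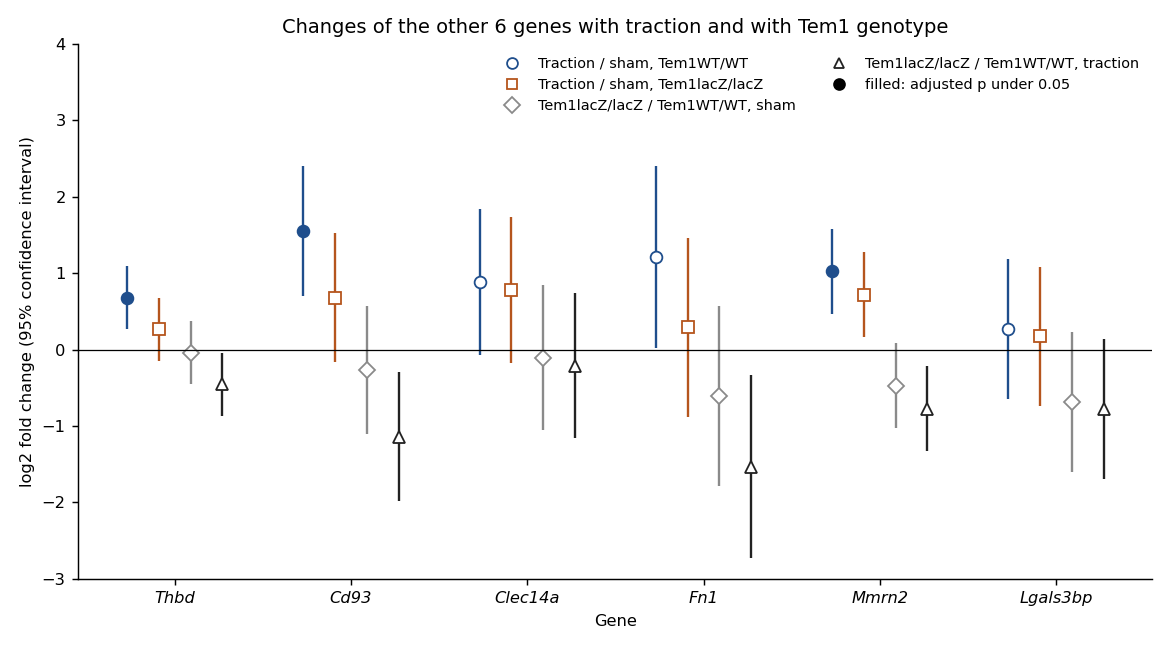
Log2 fold changes with 95% confidence intervals of the 6 genes other than Cd248 for traction against sham in each genotype and for Tem1lacZ/lacZ against Tem1WT/WT mice in each treatment; filled symbols have an adjusted p under 0.05. Thbd, Cd93 and Mmrn2 are filled for traction in Tem1WT/WT mice, and each gene lies below 0 in both genotype comparisons.

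Other endothelial genes rose with traction as well. Of 20 endothelial markers outside the 7 genes, 13 were called higher with traction in Tem1WT/WT mice and 0 lower, where 5.61% and 3.54% of all genes were. By the fitted value 19 were higher and 1 lower, and the median log2 fold change was 1.12, where the median of all genes was −0.01. Examples are Ecscr, an endothelial cell surface protein, at 1.56 (adjusted p = 0.0213), Egfl7, a matrix protein of vessels, at 1.12 (adjusted p = 0.0252) and Tie1, an orphan receptor kinase of endothelium, at 1.55 (adjusted p = 0.0252). The summed level of the list was 603 to 849 CPM in WTSH and 1529 to 1781 CPM in WTTR. It was 466 to 763 CPM in lacZSH and 695 to 1215 CPM in lacZTR. The part of this shift in the changes of the lectins was not tested. Without WTSH replicate 1 or WTSH replicate 2, or with only the 6 libraries compared, 0 of the 20 were called in edgeR, while the median log2 fold change was 1.04, 1.16 and 1.11. Without lacZSH replicate 3, WTTR replicate 1 or WTTR replicate 3 it was 5, 6 and 7 of the 20.

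The 3 lectins and Mmrn2 were therefore also set against the mean log2 CPM of the endothelial markers in the same library. Thbd was 0.305 to 0.86 above that mean in WTSH and 0.14 to 0.301 above it in WTTR, so relative to these markers it was not higher with traction. Cd93 was 0.89 to 1.74 above it in WTSH and 1.44 to 2.22 in WTTR, with overlap. Clec14a was between −0.95 and −0.20 in WTSH and between −1.96 and −0.30 in WTTR, where replicate 1 was the lowest.

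Mmrn2 varied least on this scale. It was 0.51 to 0.64 above their mean in the 6 libraries of Tem1WT/WT mice and 0.09 to 0.41 above it in the 6 of Tem1lacZ/lacZ mice, so the genotypes did not overlap on this scale. Against only Pecam1, Cdh5 and Kdr, a choice made after seeing the data, the mean difference between genotypes went from −0.28 to −0.05 and the ranges overlapped. Fn1, set against the fibroblast markers, was 1.38 to 2.37 above their mean in Tem1WT/WT mice and 0.03 to 1.43 above it in Tem1lacZ/lacZ mice, with overlap. These relative levels carry no test.

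**Figure D4:**
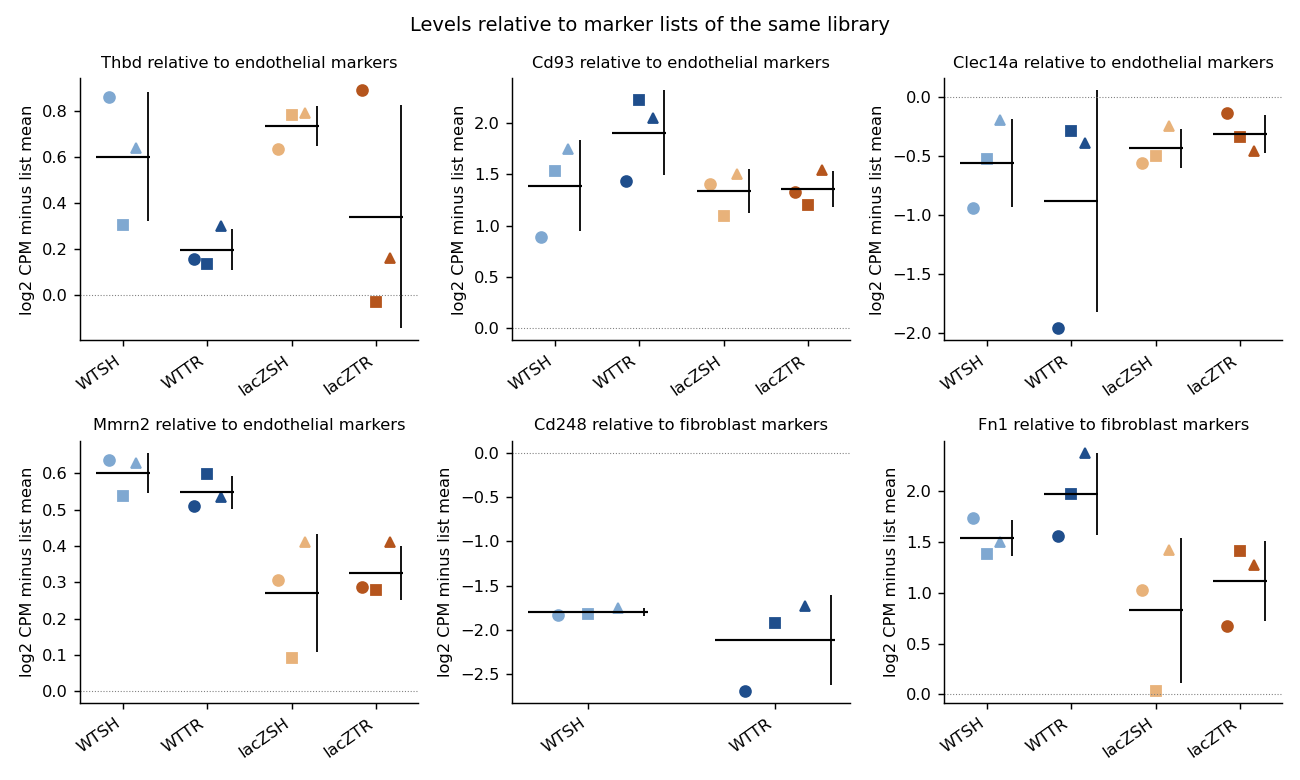
Log2 CPM of a gene minus the mean log2 CPM of a marker list in the same library, for 3 lectins and Mmrn2 against 20 endothelial markers and for Cd248 and Fn1 against 16 fibroblast markers; circles, squares and triangles are replicates 1, 2 and 3, lines are means and bars are SDs (n = 3). Mmrn2 lies at 0.51 to 0.64 in Tem1WT/WT mice and at 0.09 to 0.41 in Tem1lacZ/lacZ mice, and Clec14a is lowest in WTTR replicate 1.

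The pathways around the members were described by lists of their other genes, all with the values of traction in Tem1WT/WT mice. For counts of these lists, rose and fell mean called higher and called lower, as were 5.61% and 3.54% of all genes. Around thrombomodulin, of 12 tested genes of the protein C system, thrombin receptors and coagulation control at the vessel wall, 2 rose and 0 fell, with a median log2 fold change of 0.66. F2rl3, the thrombin receptor PAR4, rose by 1.90 (adjusted p = 0.0447) at a low level, from 0.45 to 1.68 CPM. Tfpi, the tissue factor pathway inhibitor, was at 0.92 (adjusted p = 0.0530). Leaving out 1 library gave 0 to 3 calls, with 0 without WTSH replicate 1 or 2 and 1 without lacZSH replicate 1, 2 or 3, WTTR replicate 3, or lacZTR replicate 2 or 3. In Tem1lacZ/lacZ mice none of the 12 was called, as 0% of all genes were.

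Thbd is also known to respond to laminar flow through KLF2 and KLF4. Of 6 genes of that kind, 1 rose and 1 fell. Tek, which is among the 6, also belongs to the endothelial list, and the cells that carried these transcripts were not identified. S1pr1, a sphingosine-1-phosphate receptor of endothelium, rose by 1.36 (adjusted p = 0.0272), and Klf4 fell by 0.53 on the log2 scale (adjusted p = 0.0492). The call of Klf4 was lost in 10 of the 12 fits that left out 1 library. Nos3, the endothelial nitric oxide synthase, was at 1.30 (adjusted p = 0.0652).

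Around fibronectin, 4 of 19 receptors and assembly genes rose and 0 fell, with a median log2 fold change of 0.61. Itga5, the integrin chain of the main fibronectin receptor, rose by 2.05 (standard error 0.39, adjusted p = 0.0278), from 37.0 to 153 CPM. Itgb5, which pairs with the alpha v chain, rose by 1.05 (adjusted p = 0.0333), and Parva, an adaptor of focal adhesions, rose by 0.86 (adjusted p = 0.0447). Leaving out 1 library gave 0 to 8 calls, with 0 without WTSH replicate 1 or 2, 1 without lacZSH replicate 3 or WTTR replicate 3 and 2 without WTSH replicate 3, lacZSH replicate 1, WTTR replicate 1, or lacZTR replicate 2 or 3. In Tem1lacZ/lacZ mice 0 of the 19 were called with traction, as were 0% of all genes. Itga5 had means of 36.2 CPM with sham and 47.1 CPM with traction in these mice.

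Of the EMILIN and multimerin family, the 4 members other than Mmrn2 were tested. Emilin1, an elastic fiber protein, rose by 2.39 (standard error 0.33, adjusted p = 0.0184), from 50.3 to 264 CPM. Emilin2 was at 1.47 (adjusted p = 0.0509) and Mmrn1, a multimerin of platelets, endothelium and lymphatic vessels, at −0.997 (adjusted p = 0.0563), so the multimerin-1 and multimerin-2 genes had fitted changes of opposite sign. Emilin3 was below 1 CPM in each group.

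Galectins are the family to which the partner of Lgals3bp belongs. Of 9 tested, 0 rose and 1 fell, Lgals4, a galectin of epithelia, which fell by 1.04 on the log2 scale (adjusted p = 0.0494), and the median log2 fold change was −0.04. Leaving out any 1 of the 12 libraries ended the call of Lgals4. Lgals12, an adipocyte galectin, was at −1.73 (adjusted p = 0.0783) and Lgals1 at 0.79 (adjusted p = 0.165). Lgals3bp is also an interferon-responsive gene, and of 14 interferon response genes 0 were called in edgeR, with 1 higher and 1 lower at an unadjusted p under 0.05, which 31.4% of all genes had, and a median of 0.05.

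Of 12 other ligands and partners reported for these lectins, 4 rose and 0 fell, with a median log2 fold change of 0.83. Leaving out 1 library gave 0 to 6 calls, with 0 without WTSH replicate 1 or 2 or lacZSH replicate 3 and 1 without WTSH replicate 3, WTTR replicate 1 or WTTR replicate 3. Igfbp7, a matrix protein that binds CD93, rose by 0.69 (adjusted p = 0.0278), Pdgfb, a growth factor for pericytes, by 0.95 (adjusted p = 0.0348) and Col4a1, a chain of basement membrane collagen, by 1.67 (adjusted p = 0.0392). Of 5 TGF-beta receptors, which include the endothelial coreceptor Eng and the endothelial receptor Acvrl1, these 2 rose, by 1.47 (adjusted p = 0.0303) and 1.04 (adjusted p = 0.0485), and Tgfbr3 was at 0.68 (adjusted p = 0.112). Leaving out 1 library gave 0 to 3 calls of the 5, with 0 without WTSH replicate 1 or 2, lacZSH replicate 3, WTTR replicate 1 or WTTR replicate 3. Eng also belongs to the endothelial list, and Tgfbr2 also to the 12 ligands and partners. Col1a1 and Col1a2, among those 12, are also in the list of fibroblast markers.

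**Figure D5:**
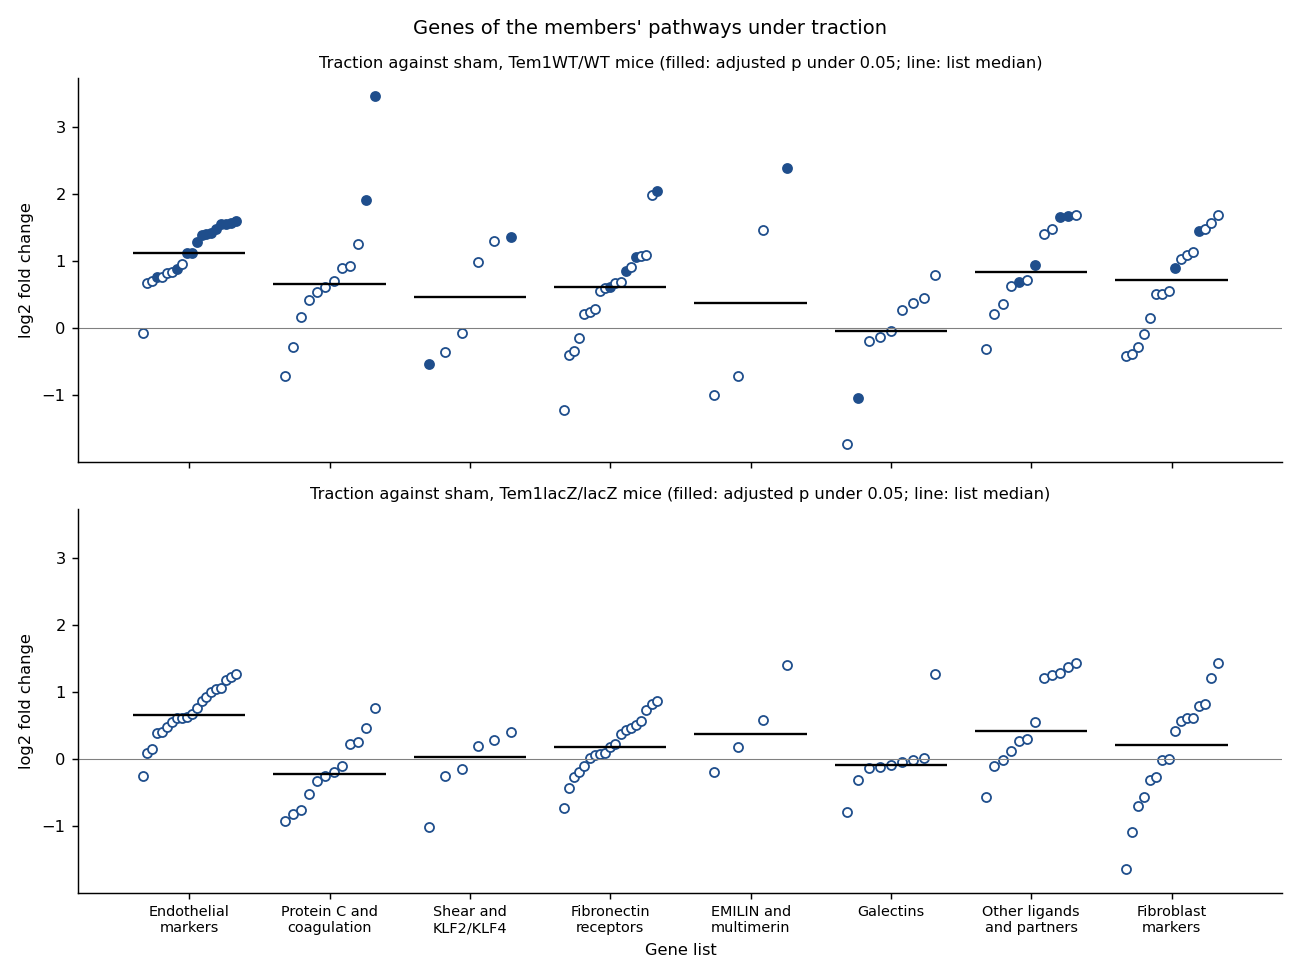
Log2 fold changes of the single genes of 8 lists (points, filled where the adjusted p is under 0.05) with the list median (line), for traction against sham in Tem1WT/WT mice (upper panel) and Tem1lacZ/lacZ mice (lower panel). Of the 20 endothelial markers 13 are filled in the upper panel, and no gene is filled in the lower panel.

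Other cell types stood as follows with traction in Tem1WT/WT mice, where 5.61% of all genes were called higher. Fibroblast markers gave 2 rises of 16 (median 0.72), led by Fbln1 at 0.90 (adjusted p = 0.0326) and Pdgfra at 1.45 (adjusted p = 0.0329), and pericyte markers 2 of 11 (median 0.67), Pdgfrb at 1.61 (adjusted p = 0.0252) and Mcam (adjusted p = 0.0277). Neutrophil markers gave 7 rises of 11 (median 4.41), with Mmp9 at 4.17 (adjusted p = 0.0252), and their summed level was 112 to 156 CPM in WTSH and 521 to 8425 CPM in WTTR. Leaving out 1 library gave 0 to 4 calls of fibroblast, 0 to 4 of pericyte and 0 to 7 of neutrophil markers. There were 0 of each without WTSH replicate 1 or 2, and 0 fibroblast calls also without WTSH replicate 3, lacZSH replicate 3 or WTTR replicate 1. Without WTTR replicate 1, 3 of 11 neutrophil markers were called and their median log2 fold change was 2.21. Macrophage (12), keratinocyte (12) and adipocyte (10) markers gave 0 calls in edgeR, with medians of 0.43, −0.34 and −1.38 and with 3, 4 and 0 genes at an unadjusted p under 0.05, against 31.4% of all genes. DESeq2's Wald test called 2 macrophage markers higher and 2 keratinocyte markers lower. The part of these cell types in the changes of the members was not tested. In the comparisons of genotypes, in traction within Tem1lacZ/lacZ mice and in the interaction, 0 genes of any of the 15 lists were called in edgeR. Of all genes, at most 0.106% were called in any of these comparisons. At an unadjusted p under 0.05, 13 of the 20 endothelial markers were higher with traction in Tem1lacZ/lacZ mice (median log2 fold change 0.65). Of all genes, 8.12% had such a p. With traction, 11 of the 20 were lower in Tem1lacZ/lacZ than in Tem1WT/WT mice (median −0.54), where 26.1% of all genes had such a p. Lower at such a p were also 10 of 16 fibroblast markers, 8 of 11 neutrophil markers and 6 of 12 protein C genes. So were 13 of 19 fibronectin receptor genes (1 was higher), 9 of 12 other ligands and 5 of 5 TGF-beta receptors. Some of these lists share genes. Lower too were 3 of 11 pericyte and 3 of 12 macrophage markers, near the share of all genes, which counts both directions. There were also 2 of 14 interferon response and 2 of 6 shear genes lower. Higher were 3 of 12 keratinocyte markers, near that share as well, and 3 of 9 galectins, with no galectin lower. Of 4 EMILIN and multimerin genes 2 were lower and 1 higher, and no adipocyte marker had such a p.

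Within the set, Cd93 and Mmrn2 were the pair that varied most alike over the 12 libraries, with a Pearson's r of 0.943 in log2 CPM, and 0.857 after the group means were removed. On that second scale Fn1 with Mmrn2 (0.886) and Cd93 with Clec14a (0.865) were above it, so the order depends on the group means. With the group means kept, Fn1 with Mmrn2 had 0.887, Cd93 with Clec14a 0.789 and Thbd with Cd93, its neighbor on chromosome 2, had 0.845, which became 0.484 without the group means. Lgals3bp and Clec14a were the least alike of the 6 genes other than Cd248, at 0.159. Over the 6 libraries with Tem1, Cd248 had 0.911 with Clec14a and −0.01 with Lgals3bp.

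The genes most like each member outside the set were also sought over the 12 libraries. For Cd93 they were Col5a2 (0.978), Lman1, Cd276, Vash1 and Gjc1, and for Mmrn2 they were Fndc3b (0.988), Rrbp1, Adgrf5, Fgd5 and Sipa1. Thbd was nearest to Mamdc2 (0.929), 9030617O03Rik, Sumf1, Tll1 and Cxx1b. Clec14a was nearest to the pericyte marker Rgs5 (0.972), Zfp354c, Phldb2, Lrch2 and Cdh2. Fn1 was nearest to Pde8a (0.981), Magee1, Meis3, St6galnac6 and Zeb1, and Lgals3bp to C1qtnf1 (0.925), Trim14, Lpgat1, Znfx1 and Dgkd. All these libraries share the 4 groups, depth and tissue composition.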

How the data were processed

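RNA-seq of mouse scars was analysed in 12 libraries, 3 mice in each of 4 groups taken from the sample labels. The authors prepared stranded poly(A) libraries and deposited raw read counts per gene and library, without normalization. The submitters' processing notes name fastp 0.20.0, HISAT2 2.1.0, featureCounts 2.0.0 and GRCm38. The annotation, the strand setting and the treatment of reads with several alignments are not given in the sources used here. The study compared groups with DESeq2, which was run here as an alternative.

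After filterByExpr and TMM normalization, edgeR 4.0.16 (R 4.3.3) fitted 1 robust quasi-likelihood model of the 4 groups, which left 8 residual degrees of freedom. All tests are two-sided, with Benjamini-Hochberg adjustment over 18853 genes and a threshold of 0.05, and no replicate block. Confidence intervals are 95%. Log2 CPM for relative levels and likeness had a prior count of 2. Likeness was sought among genes averaging a log2 CPM of 1 or more, and the 5 nearest are given. Each of the 7 genes was named whatever its values, and of a list up to 3 genes with the smallest p, some of which are not reported here. The 7 genes and the lists were chosen with earlier results of these data known. Positions and coding sequences come from GENCODE vM21, and of 35974 distinct symbols 90.3% were in RefSeq GRCm38.p6. Library totals of 41536788 to 64644293 counts gave the least abundant lectin, Clec14a, at least 483 counts. Mice differ between groups, so p-values reflect variation between mice. No 2 libraries were copies. Alternatives used DESeq2 1.42.0, limma 3.58.1, other filters and normalizations, the replicate number as a block and leaving out each library. On simulated counts for traction in Tem1WT/WT mice (18498 genes), edgeR recovered 77 of 100 genes changed by a log2 of 2 and 94 of 100 changed by 3, with 7 false calls. On the same counts DESeq2 recovered 88 and 98 with 40 false calls, and limma-voom 75 and 94 with 5. The 7 genes changed by a log2 of at most 1.55 in this comparison, and recovery at such sizes was not simulated. Figures were drawn with Python 3.11.15 and matplotlib 3.10.9.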

Additional observations from a re-analysis of the deposited data

How the results depend on the processing

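Over the 43 comparisons of single genes other than the check of Cd248, 884 alternatives were run. Of these, 797 kept direction and side of the threshold, 53 lost a call, 8 gained one and 26 changed sign, none of these from a called value. Only Thbd, Cd93 and Mmrn2 with traction, in Tem1WT/WT mice and in the average, had a call to lose. The total of 884 therefore does not show how often a call was lost. In the average over genotypes these genes were called in 9, 13 and 14 of 20 alternatives. The direction of the 3 rises with traction in Tem1WT/WT mice held in all 21 alternatives, with log2 fold changes of 0.53 to 0.82 for Thbd, 1.26 to 1.86 for Cd93 and 0.91 to 1.16 for Mmrn2. They were called in 7, 14 and 13 of the 21, with adjusted p-values of 0.0109 to 0.144, 0.00193 to 0.133 and 0.00353 to 0.137. All 3 calls were lost with only the libraries of the groups compared (0 of 7 genes called) and without WTSH replicate 1 or 2, lacZSH replicate 3, WTTR replicate 3 or lacZTR replicate 2, so that leaving out a library gave 0 to 3 calls. With all genes that had at least 1 count there was 1 call, Mmrn2. Thbd alone also lost its call without lacZSH replicate 1 (adjusted p = 0.0566) or lacZTR replicate 3 (0.0606), with upper quartile scaling (0.0758), with limma-voom (0.0725) and with genes of at least 10 counts in every library (0.0501). Without WTSH replicate 3 or WTTR replicate 1, Cd93 was the 1 gene called. Averaged over both genotypes, leaving out a library gave 0 to 4 calls, with 0 without WTSH replicate 1 or 2, lacZSH replicate 2 or 3, or lacZTR replicate 2 or 3, and 1 without WTTR replicate 3. The cause of these losses was not tested.

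Cd248 was called in sham scars in all 20 alternatives and in traction scars in 19 of 20, and its log2 difference there was −10.64 with an adjusted p of 0.154 with only the libraries of the groups compared, when 0 of the 7 genes were called. It could not be tested where each library had to hold at least 10 counts of a gene, which left 0 calls in the 3 genotype comparisons that otherwise gave 1. DESeq2's Wald test called 4 of the 7 genes between genotypes with traction and 3 in the average over treatments. Upper quartile normalization moved the median of all genes with traction in Tem1WT/WT mice to −0.12, and of the called genes 43.9% were then higher and 83.5% with limma-voom, against 1057 of 1725. Of the 4 fibronectin receptor calls and the 2 protein C calls, the counts over 21 alternatives were 0 to 11 and 0 to 5, changed by over 1.5 times in 16 and 12 of them. DESeq2 gave the 11 and the 5, only the libraries compared gave 0 and 0, and all genes with at least 1 count or upper quartile scaling gave 2 and 1. The 13 endothelial calls became 0 to 16, and 0 with only the libraries compared.

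Small differences changed sign. Thbd between genotypes with sham was 0.014 with upper quartile scaling, 0.0064 with limma-voom, and −0.17 to 0.11 when 1 library was left out. The same range was −0.56 to 0.037 for Cd93 and −0.37 to 0.22 for Clec14a. Leaving out 1 library gave −0.050 to 0.81 for Cd248 with traction in Tem1WT/WT mice, and −0.063 to 0.67 for Fn1 and −0.46 to 0.57 for Lgals3bp with traction in Tem1lacZ/lacZ mice. It gave −0.57 to 0.10 for Clec14a between genotypes with traction, −0.35 to 0.0052 for Clec14a in the average genotype difference and −0.091 to 0.41 for Lgals3bp in the average traction effect. In the interaction it gave −0.44 to 0.23 for Clec14a and −0.74 to 0.31 for Lgals3bp, which was 0.38 with limma-voom.

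The replicate numbers of the labels name different mice. Deviations from the group means correlated at −0.32 to 0.25 over the 18 pairs of same-numbered libraries, 8 of them over 0.1. Pairs of different number from different groups correlated at −0.40 to 0.37, so the highest value was not of a same-numbered pair. Of 12 libraries, 8 correlated best with their own number, which is a hint from the data and not the design. With the replicate number as a block, the log2 difference of Clec14a between genotypes with sham was 0.011, and the calls of Thbd, Cd93 and Mmrn2 with traction in Tem1WT/WT mice stood, while 1467 genes were called in place of 1725.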
